A study of Rattus norvegicus with 74 samples.

Results

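The genes described here encode coagulation, fibrinolysis and complement proteins that the liver secretes into plasma. They were listed by function, with earlier results of these data known. Of 38 listed genes, 32 were measured among the 14217 genes tested on the arrays: 13 of coagulation, 4 of fibrinolysis and 15 of complement. F7, F11 and F13b had no probe set in the array annotation used, and Kng1, C2 and Cfb were only on probe sets that the annotation assigns to several genes, so these 6 were not analysed here. Where a gene had several probe sets of its own, the one with the highest mean over all arrays stood for it.

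The RNA came from the left liver lobe of Wistar Han rats (Crl:WI (Han)) and was measured on 74 arrays in 15 groups of agent and dose. BDE-47 is a single polybrominated diphenyl ether, a class of flame retardants, and DE-71 is a commercial mixture of such ethers that contains BDE-47. Both were gavaged at 15 and 50 mg/kg, at a low dose of 0.1 mg/kg and, as the control, at 0 mg/kg. Dams received them over gestation days 6 to 21 and the pups over postnatal days 12 to 21, and the pups' livers were taken on postnatal day 22. Phenobarbital, a drug known to activate the nuclear receptor CAR, was given at 0, 5 or 45 mg/kg. PCB126, a dioxin-like biphenyl known to activate the aryl hydrocarbon receptor (AhR), was given at 0, 10, 50 or 250, labelled mg/kg, a unit that could not be checked. For these comparison agents the labels give gavage before and after birth but no dosing days of their own. Their livers, too, were taken on postnatal day 22. Each group held 5 arrays, except DE-71 50 mg/kg, which held 4 (replicates 2 to 5). Sex and litter are not given, so a p value here reflects how these samples vary and nothing wider.

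Hepatocytes make most of the plasma proteins of the clotting and complement cascades. In coagulation, serine proteases activate each other until thrombin cuts fibrinogen into fibrin, while antithrombin, heparin cofactor II, protein C and its cofactor protein S hold the cascade back. Plasmin, released from plasminogen, dissolves fibrin. Complement is started by the C1 complex on antibodies or by mannose-binding lectins with their MASP proteases on sugars, and both routes lead to cleavage of C3 and to assembly of the membrane attack complex from C5 to C9.

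Values are log2 array signals, and a difference of 1 is a doubling. Signals of different probe sets do not rank the RNA levels of different genes. Hepatocyte markers were strong in every sample: the summed signal of the 9 measured markers lay between 16.4 and 16.88 on the log2 scale. The mean signal of the 32 members ran from 7.46 for C6 to 14.08 for C3, and 27 members lay above the 95th percentile of all genes, so that most were far from the dim end of the arrays. The spread within groups was 0.16 at the median member (SD), against 0.18 at the median gene. Among the 186 genes at or above the median level of the members (12.05), the median spread was 0.13. Of the members, Fgg had the smallest spread (0.06) and C8b the largest (0.58). In bulk liver, fewer cells of a type and less RNA per cell cannot be told apart.

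Some arrays stand apart or nearly repeat each other. Nearly identical arrays within the BDE-47 0 mg/kg group (replicates 3 and 4) and within the DE-71 15 mg/kg group (replicates 1 and 2) were averaged and counted as 1 sample each, which left 72 samples. In addition, BDE-47 15 mg/kg replicate 3 nearly repeats BDE-47 50 mg/kg replicate 3 (root mean square difference 0.105), and DE-71 15 mg/kg replicate 5 nearly repeats DE-71 50 mg/kg replicate 4 (0.124). These arrays carry different dose labels and were kept, and results are also given without these 4 arrays, a setting chosen after seeing the data. DE-71 50 mg/kg replicate 2 had the lowest mean correlation with its group of all arrays (0.9783, against up to 0.9947). Results at that dose are given with and without it.

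Each dose was compared with 0 mg/kg of its own agent in a single limma model over all 14217 genes. A gene was called at a Benjamini-Hochberg adjusted p below 0.05, and rose or fell is used of called genes. Few members were called at any dose below DE-71 50 mg/kg. After BDE-47 no member was called at 0.1 mg/kg, where no gene of the arrays was called (0%). At 15 mg/kg 1 member rose, where 0.823% of all genes were called and 0.598% were higher. At 50 mg/kg 1 rose and 1 fell, where 4.03% of all genes were called, 2.35% higher and 1.68% lower. After DE-71 no member was called at 0.1 mg/kg (0% of all genes) and 2 rose at 15 mg/kg, where 1.24% of all genes were called and 1.01% were higher. At DE-71 50 mg/kg 3 rose and 5 fell, 25% of the members against 10.2% of all genes (4.83% higher and 5.35% lower). After phenobarbital no member was called at 5 mg/kg (0.106% of all genes, with 0.0211% lower). At 45 mg/kg 1 rose and 1 fell, where 2.7% of all genes were called, 1.38% higher and 1.32% lower. After PCB126 no member was called at 10 (0% of all genes), 50 (0.00703%) or 250 (0.0563%). By limma's unadjusted p below 0.05, the PCB126 comparisons held 0, 1 and 2 members in the same order, or 0%, 3.12% and 6.25% of members against 2.67%, 5.63% and 5.82% of all genes. At that threshold the 0.1 mg/kg doses of BDE-47 and DE-71 held 0 members each (3.21% and 6.39% of all genes), and phenobarbital 5 mg/kg held 3 (9.38% against 6.59%). BDE-47 and DE-71 15 mg/kg held 3 members each (9.38% against 11.2% and 10.3%). BDE-47 50 mg/kg held 9 (28.1% against 15.7%), DE-71 50 mg/kg 18 (56.2% against 24.2%) and phenobarbital 45 mg/kg 11 (34.4% against 12.8%).

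**Figure D1:**
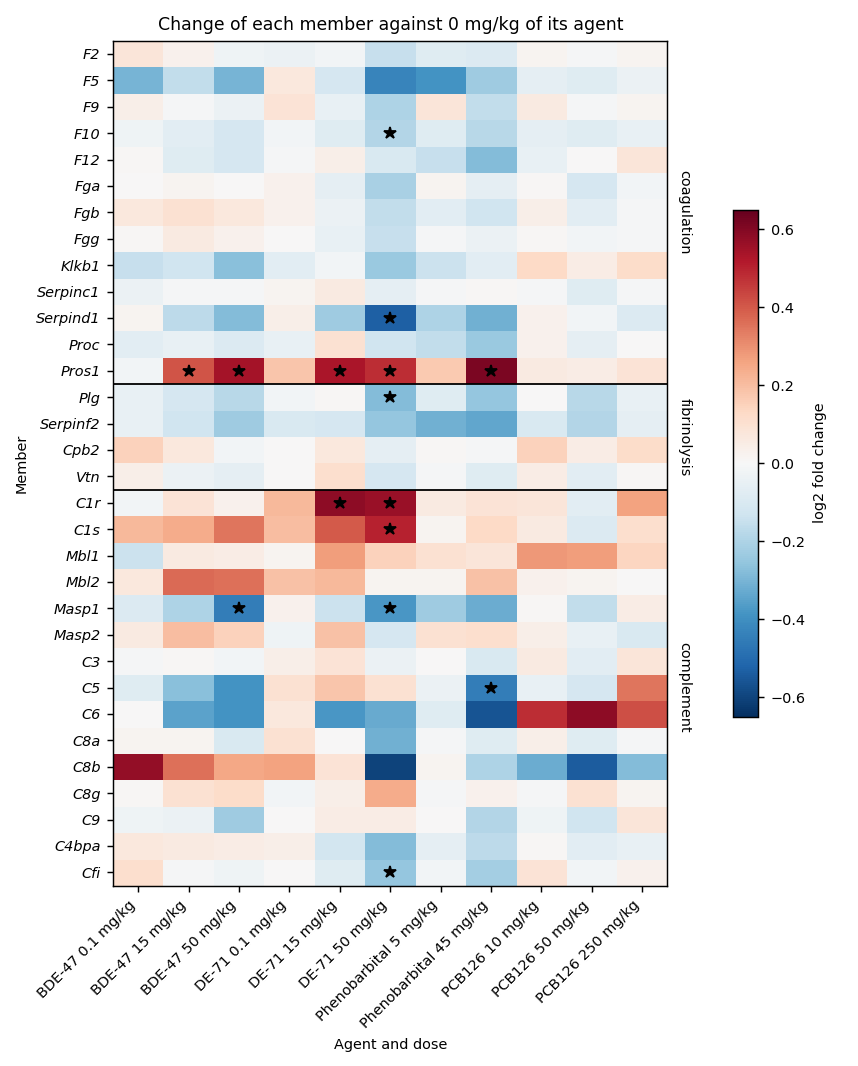
Log2 fold change of the 32 measured members (rows, grouped as coagulation, fibrinolysis and complement) in the 11 dose comparisons (columns), each against 0 mg/kg of its own agent. Red is higher and blue lower, and stars mark the 15 calls. Pros1 carries 5 of these stars, DE-71 50 mg/kg carries 8, and the PCB126 columns carry none.

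Pros1, C1r and Masp1 were called in more than 1 comparison. Their promoter stretches are printed to show the regulatory sequence of the members that moved repeatedly. They are the 250 bases before the RefSeq start on build GRCr8: Pros1 at chr11:13677049-13677298, C1r at chr4:159098763-159099012 and Masp1 at chr11:90839472-90839721, all on the + strand. Capitals mark letters that match, on either strand, any of the searched motifs GTTAAT (HNF1), CAAAGT (HNF4), TTGCNNAA (C/EBP), TGTTTAC (FOXA), GCGTG (AhR), AGGTCA (nuclear receptors), its variant AGTTCA, TTCNNNGAA (STAT) and TATAAA (the core promoter box).
Pros1: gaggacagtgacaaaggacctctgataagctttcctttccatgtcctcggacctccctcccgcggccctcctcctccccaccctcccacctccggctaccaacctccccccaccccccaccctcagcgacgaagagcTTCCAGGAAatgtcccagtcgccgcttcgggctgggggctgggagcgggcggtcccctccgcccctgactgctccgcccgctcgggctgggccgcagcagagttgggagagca
C1r: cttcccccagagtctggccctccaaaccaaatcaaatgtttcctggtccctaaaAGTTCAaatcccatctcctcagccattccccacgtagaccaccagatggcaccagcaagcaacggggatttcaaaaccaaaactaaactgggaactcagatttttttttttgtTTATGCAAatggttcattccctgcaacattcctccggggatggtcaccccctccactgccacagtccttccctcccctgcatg
Masp1: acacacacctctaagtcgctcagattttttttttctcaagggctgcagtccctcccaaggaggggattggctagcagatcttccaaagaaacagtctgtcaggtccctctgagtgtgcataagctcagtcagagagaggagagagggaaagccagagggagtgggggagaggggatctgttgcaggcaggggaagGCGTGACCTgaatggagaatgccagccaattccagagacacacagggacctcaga

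The Pros1 stretch held a STAT match, a motif found in 7.7% of the 33469 promoters of the table. The C1r stretch held a C/EBP match on the reverse strand (9.2% of promoters) and AGTTCA (12.2%). The Masp1 stretch held GCGTG (25.9%) overlapping a reverse AGGTCA (14.1%). Over the 30 listed members with a promoter in the table, 13 held AGGTCA (43.3%), 12 held TTGCNNAA (40%), 9 held GTTAAT (30%, against 6.5% of all promoters), 6 held TTCNNNGAA (20%) and 4 held TGTTTAC (13.3% against 3.2%). The other motifs had a lower share among members than among all promoters: CAAAGT 10% against 12.9%, GCGTG 13.3% against 25.9%, AGTTCA 10% against 12.2% and TATAAA 3.3% against 12.9%. These matches describe letters and not binding.

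Among coagulation genes, Pros1 was the member with the most calls. It encodes protein S, the cofactor of activated protein C and thus an anticoagulant. The 4 samples of BDE-47 0 mg/kg read 10.02, 10.24, 9.99 and 10.30. At 15 mg/kg the samples read 10.35, 10.56, 10.53, 10.73 and 10.57, and at 50 mg/kg 10.84, 10.82, 10.55, 10.69 and 10.50. All samples of both doses lay above all controls. Pros1 rose by a log2 difference of 0.41 ± 0.10 (SE, adjusted p = 0.013) at 15 mg/kg and by 0.54 ± 0.10 (adjusted p = 6e-05) at 50 mg/kg. The call at 15 mg/kg was lost when BDE-47 0 mg/kg replicate 1, the averaged replicates 3 and 4, or BDE-47 15 mg/kg replicate 4 was left out (0.36 to 0.37, adjusted p from 0.059 to 0.11). At 0.1 mg/kg the difference was -0.02 (95% confidence interval -0.21 to 0.17).

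After DE-71, Pros1 read 9.92, 10.45, 9.68, 9.91 and 10.24 in the controls, a wider spread than in the other control groups (SD 0.30, against 0.08 to 0.16). The 15 mg/kg samples read 10.59, 10.63, 10.62 and 10.46, all above the controls. The 50 mg/kg samples read 10.41, 10.56, 10.64 and 10.46, and the lowest of them lay just below the highest control. Pros1 rose by 0.53 ± 0.10 (SE, adjusted p = 0.00025) at 15 mg/kg and by 0.48 ± 0.10 (adjusted p = 0.00035) at 50 mg/kg. When only the arrays of each comparison entered the model, its adjusted p became 0.22 and 0.18.

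The highest of the 11 Pros1 differences was at phenobarbital 45 mg/kg, and it was not tested against the others. Controls read 10.30, 10.14, 10.34, 10.30 and 10.18, and the 45 mg/kg samples read 10.94, 10.83, 10.81, 10.85 and 10.88. The groups were clearly apart, and Pros1 rose by 0.61 ± 0.09 (SE, 1.52-fold, adjusted p = 2.4e-06). At 5 mg/kg the samples lay between 10.34 and 10.51, and the difference of 0.17 was not called (adjusted p = 0.78). The PCB126 group means were 10.01 at 0 and 10.06, 10.06 and 10.10 at the rising doses, with differences of 0.05 to 0.09 that were not called. Without the 4 arrays that nearly repeat across doses, Pros1 was 0.41 and 0.58 after BDE-47 and 0.57 and 0.44 after DE-71, and all 4 stayed called.

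**Figure D2:**
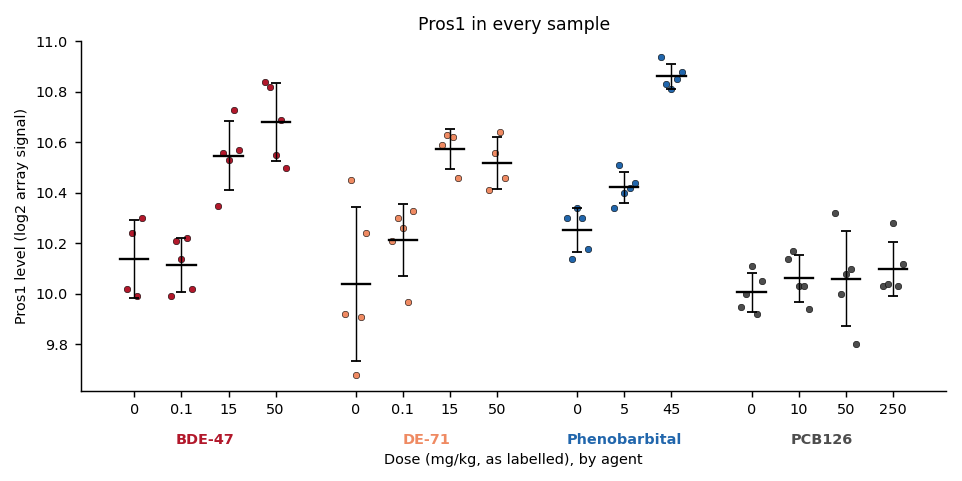
Pros1 level (log2 array signal) in each of the 72 samples, by agent and dose. Points are samples, thick lines are group means and bars are SD. The 45 mg/kg phenobarbital samples (10.81 to 10.94) lie above all their controls (10.14 to 10.34), while the PCB126 groups overlap.

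Of the other 3 inhibitors of clotting, only Serpind1 was called, and it fell. Serpind1 encodes heparin cofactor II, an inhibitor of thrombin. It read 12.54, 12.73, 12.35, 12.57 and 12.64 in the DE-71 controls and 11.61, 12.05, 12.22 and 12.28 at 50 mg/kg, so that all treated samples lay below all controls. Serpind1 fell by 0.53 on the log2 scale (SE 0.12, adjusted p = 0.0014). Without replicate 2, its lowest sample, the difference was -0.38 (adjusted p = 0.062). Serpind1 was -0.28 (adjusted p = 0.18) at BDE-47 50 mg/kg and -0.31 (adjusted p = 0.13) at phenobarbital 45 mg/kg.

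Serpinc1, which encodes antithrombin, the main inhibitor of thrombin, was among the steadiest members. Its 4 control means lay between 13.38 and 13.57, and its 11 differences ran from -0.08 to 0.06. The DE-71 controls read 13.40, 13.53, 13.23, 13.26 and 13.48, and the 50 mg/kg samples 13.15, 13.31, 13.38 and 13.42. These groups overlapped, and the 95% confidence interval of the difference was -0.17 to 0.04. After BDE-47 the controls read 13.32, 13.49, 13.39 and 13.41 and the 50 mg/kg samples 13.38 to 13.40. Proc, the protein C gene whose product Pros1 assists, was not called at any dose (-0.24 at phenobarbital 45 mg/kg, adjusted p = 0.19).

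Of the 9 procoagulant and contact genes, only F10 was called, once. F10 encodes factor X, whose active form makes thrombin. The DE-71 controls read 11.56, 11.68, 11.59, 11.71 and 11.71, and the 50 mg/kg samples 11.27, 11.56, 11.48 and 11.52. The groups touched at 11.56. F10 fell by 0.19 (SE 0.06, adjusted p = 0.038), and the difference was -0.13 without replicate 2 (adjusted p = 0.37). It was -0.18 without DE-71 0 mg/kg replicate 2, 4 or 5 (adjusted p from 0.076 to 0.091).

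F2, the prothrombin gene, differed by -0.15 to 0.08 over all 11 comparisons. It read 13.22, 13.41, 13.21, 13.21 and 13.38 in the DE-71 controls and 13.09, 13.08, 13.20 and 13.17 at 50 mg/kg (difference -0.15, adjusted p = 0.099). These treated samples lay just below all controls. After BDE-47 it read 12.94, 13.22, 13.10 and 13.21 in controls and 13.14, 13.19, 13.14, 12.94 and 13.02 at 50 mg/kg, with overlap. The phenobarbital controls ran from 13.48 to 13.53 and the 45 mg/kg samples from 13.40 to 13.43, a difference of -0.09 (adjusted p = 0.56).

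On the probe sets used, the 3 fibrinogen chains moved little. A dimmer Fga probe set (mean 12.03) fell by 0.58 at DE-71 50 mg/kg (adjusted p = 0.0054). Fgb, the beta chain, read 13.77, 13.82, 13.54, 13.79 and 13.77 in the DE-71 controls and 13.26, 13.64, 13.70 and 13.72 at 50 mg/kg. Replicate 2 was the lowest sample and the rest overlapped the controls, with a difference of -0.16 (adjusted p = 0.17). Fga (-0.21, adjusted p = 0.12) and Fgg (-0.15, adjusted p = 0.06) had negative differences at that dose, without a call. Without replicate 2 the differences shrank to -0.05 for Fgb, -0.08 for Fga and -0.08 for Fgg. Fgb differed by 0.07 at BDE-47 50 mg/kg, by -0.13 at phenobarbital 45 mg/kg and by -0.07 to 0.04 after PCB126. F5, the cofactor of factor X, had the widest range of the procoagulant genes, from -0.43 at DE-71 50 mg/kg (adjusted p = 0.13, and -0.27 without replicate 2) to 0.07.

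Among the 4 fibrinolysis genes Plg was called once. Plg encodes plasminogen, the precursor of plasmin. The DE-71 controls read 13.26, 13.26, 13.08, 13.26 and 13.39, and the 50 mg/kg samples 12.59, 13.02, 13.18 and 13.06. Replicate 2 lay well below the control range. The samples at 13.02 and 13.06 lay just below the lowest control (13.08), and that at 13.18 lay within the range. Plg fell by 0.28 (SE 0.09, adjusted p = 0.028), and without replicate 2 the difference was -0.16 (adjusted p = 0.42). Without DE-71 0 mg/kg replicate 5 it was -0.25 (adjusted p = 0.089). At phenobarbital 45 mg/kg the samples read 13.21, 13.23, 13.29, 13.35 and 13.04, all below the controls at 13.56, 13.51, 13.40, 13.41 and 13.50, and the difference of -0.25 was not called (adjusted p = 0.094). At BDE-47 50 mg/kg all 5 samples (12.97 to 13.23) lay at or below the lowest control (13.23), a difference of -0.18 (adjusted p = 0.3).

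Serpinf2, the gene of alpha-2-antiplasmin, was lower without a call at phenobarbital 45 mg/kg (-0.34, adjusted p = 0.084). Cpb2, which encodes the fibrinolysis inhibitor TAFI, and Vtn, the vitronectin gene, stayed between -0.11 and 0.15 in all 11 comparisons.

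Complement gave 7 of the 15 calls, spread over initiation proteases, C5 and the inhibitor Cfi. C1r and C1s encode the proteases of the C1 complex. C1r read 10.09, 10.51, 10.09, 10.45 and 10.41 in the DE-71 controls. It read 10.95, 10.70, 10.96 and 10.96 at 15 mg/kg and 10.77, 10.64, 10.79 and 11.25 at 50 mg/kg. All samples of both doses lay above all controls. C1r rose by 0.58 ± 0.13 (SE, 1.5-fold, adjusted p = 0.0099) at 15 mg/kg and by 0.56 ± 0.13 (adjusted p = 0.0038) at 50 mg/kg. It stayed called at 50 mg/kg without replicate 2 (0.59, adjusted p = 0.013), and without the near-repeat arrays it stayed called at 15 mg/kg, with an adjusted p that rounds to 0.05. Without DE-71 0 mg/kg replicate 3 the call at 15 mg/kg was lost (0.53, adjusted p = 0.051).

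C1s was called after DE-71 as well, at the highest dose. Its controls read 11.02, 11.17, 11.02, 11.26 and 11.36, the 15 mg/kg samples 11.62, 11.49, 11.64 and 11.51, and the 50 mg/kg samples 11.70, 11.46, 11.58 and 11.93. Neither dose overlapped the controls. C1s rose by 0.50 ± 0.14 (SE, adjusted p = 0.0098) at 50 mg/kg, and the difference of 0.40 at 15 mg/kg was not called (adjusted p = 0.18). Without replicate 2 the 50 mg/kg difference was 0.49 (adjusted p = 0.054), and without replicate 5 it was 0.41 (adjusted p = 0.058). After BDE-47 50 mg/kg, C1r differed by 0.03 (95% confidence interval -0.24 to 0.30) and C1s by 0.35 (adjusted p = 0.14).

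Masp1 encodes a protease of the lectin pathway. The BDE-47 controls read 9.86, 9.93, 9.91 and 9.57, and the 50 mg/kg samples 9.22, 9.48, 9.54, 9.35 and 9.25, all below the controls. Masp1 fell by 0.45 (SE 0.12, adjusted p = 0.014), and the difference was -0.49 without the near-repeat arrays. The call was lost without BDE-47 0 mg/kg replicate 2, the averaged replicates 3 and 4, or BDE-47 50 mg/kg replicate 1 (-0.42 to -0.41, adjusted p from 0.053 to 0.063). The DE-71 controls read 9.63, 9.46, 9.64, 9.83 and 9.64, and the 50 mg/kg samples 8.97, 9.50, 9.43 and 9.15, with a small overlap. Masp1 fell by 0.38 there (SE 0.12, adjusted p = 0.028), and the difference was -0.28 without replicate 2 (adjusted p = 0.27). That call was also lost without replicate 5 (-0.34) or without DE-71 0 mg/kg replicate 4 (-0.33) or 5 (-0.38). The difference at phenobarbital 45 mg/kg was -0.32 without a call (adjusted p = 0.11), although all 5 treated samples (9.34 to 9.56) lay below all controls (9.72 to 9.94).

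**Figure D3:**
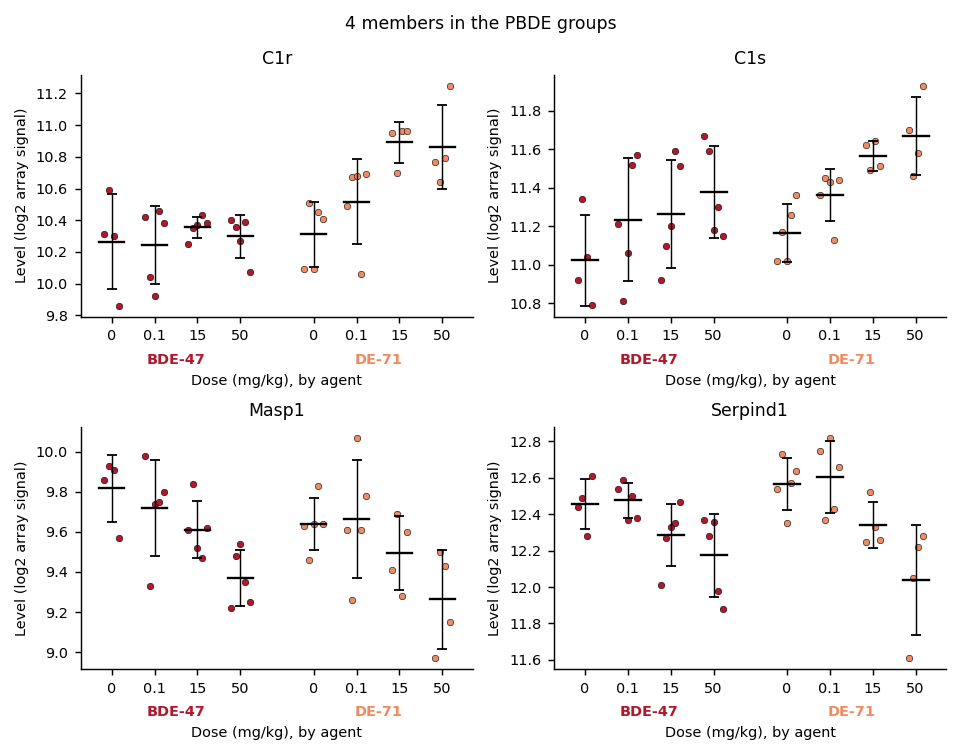
Levels (log2 array signal) of C1r, C1s, Masp1 and Serpind1 in the BDE-47 and DE-71 samples by dose. Points are samples, thick lines are group means and bars are SD. C1r lies above its controls at DE-71 15 and 50 mg/kg and at the control level after BDE-47, and the lowest Masp1 and Serpind1 samples at DE-71 50 mg/kg (8.97 and 11.61) are of replicate 2.

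On the probe sets used, the lectins and the remaining lectin protease gave no call. Mbl2, a mannose-binding lectin gene, differed by 0.37 and 0.36 at BDE-47 15 and 50 mg/kg (adjusted p = 0.24 and 0.14) and by 0.02 at DE-71 50 mg/kg. A dimmer Mbl2 probe set (mean 9.73) gave 0.29, 0.48 and 0.52 in the same order, also without a call. Mbl1 ran from -0.14 to 0.28 and Masp2 from -0.11 to 0.20 over the 11 comparisons.

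C3, the hub of all complement routes, showed no called difference. Its group means lay between 13.93 and 14.24. The DE-71 controls read 14.06, 13.94, 13.85, 13.98 and 14.06, and the 50 mg/kg samples 13.70, 13.98, 14.02 and 14.03. Apart from replicate 2 these values coincide with the controls, and the 95% confidence interval of the difference was -0.19 to 0.10. The interval at BDE-47 50 mg/kg was -0.16 to 0.12, and at phenobarbital 45 mg/kg -0.23 to 0.03.

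In the terminal pathway only C5 was called. C5 is cleaved to start the membrane attack complex. It read 11.17, 11.40, 11.16, 11.31 and 11.32 in the phenobarbital controls and 10.94, 10.81, 11.03, 10.75 and 10.61 at 45 mg/kg, with no overlap. C5 fell by 0.45 (SE 0.12, 1.36-fold lower, adjusted p = 0.03). The call was lost when control replicate 2, 4 or 5 or treated replicate 2, 4 or 5 was left out (-0.44 to -0.39, adjusted p from 0.058 to 0.12). The BDE-47 controls read 11.15, 11.33, 11.22 and 11.01. At 50 mg/kg 4 samples read 10.62, 10.61, 10.87 and 10.82, and replicate 3 lay just under the lowest control. These groups did not overlap, but the difference of -0.39 was not called (adjusted p = 0.072). It was called with all 74 arrays as separate samples (-0.40, adjusted p = 0.032) and with array quality weights (-0.40, adjusted p = 0.025).

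C9, which forms the pore of the membrane attack complex, differed by -0.23 at BDE-47 50 mg/kg (adjusted p = 0.16). Its controls read 12.45, 12.63, 12.45 and 12.41, and the 50 mg/kg samples 12.06, 12.26, 12.39, 12.30 and 12.27, all lower. After DE-71 the controls read 12.32, 12.45, 12.28, 12.38 and 12.37 and the 50 mg/kg samples 12.32, 12.42, 12.49 and 12.41, which overlap. C9 was -0.19 at phenobarbital 45 mg/kg (adjusted p = 0.31) and between -0.13 and 0.08 after PCB126. C6, the dimmest member, ranged from -0.56 to 0.58 with a within-group SD of 0.49, and no difference was called.

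C8b, a chain of C8, was read at separate levels. Its 72 samples left a gap of 0.73 between 10.40 and 11.13, with 11 samples below and 61 above. No other member had such a gap of over 0.16 with at least 5 samples on each side. The 11 low samples lay in 10 of the 15 groups, 2 of them among the 4 samples of DE-71 50 mg/kg and at most 1 in any other group. The samples at DE-71 50 mg/kg read 10.28, 11.15, 11.24 and 9.94, against 10.15, 11.92, 11.31, 11.36 and 11.51 in the controls. The difference of -0.60 there, and that of 0.57 at BDE-47 0.1 mg/kg, were not called, and the low samples differed in number between those groups and their controls. C8a and C8g, the other chains of C8, had within-group SDs of 0.19 and 0.15.

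**Figure D4:**
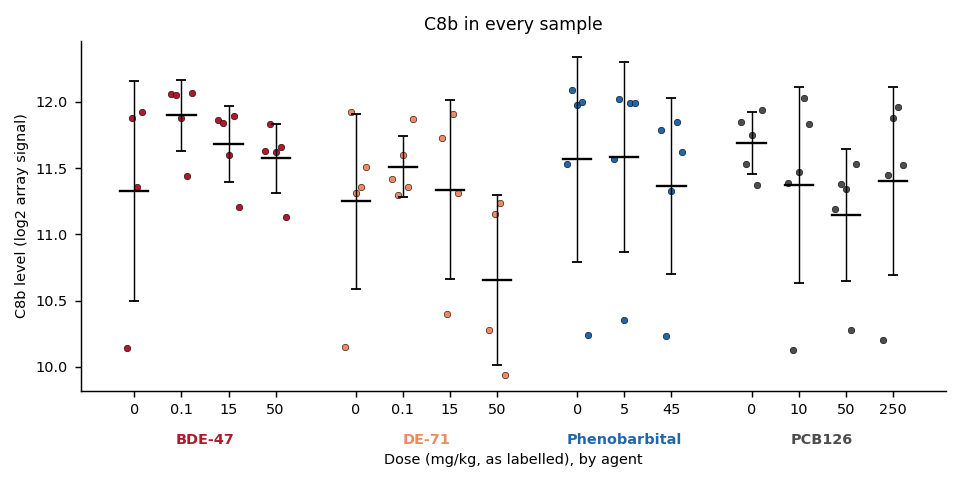
C8b level (log2 array signal) in each of the 72 samples, by agent and dose. Points are samples, thick lines are group means and bars are SD. A gap from 10.40 to 11.13 separates 11 low samples from the other 61. The low samples lie in 10 groups, with none in the PCB126 controls, in any treated BDE-47 group or at DE-71 0.1 mg/kg.

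Of the complement inhibitors, Cfi was called once. It encodes factor I, which cuts C3b and C4b. The DE-71 controls read 12.92, 12.99, 12.83, 12.85 and 12.98, and the 50 mg/kg samples 12.49, 12.67, 12.78 and 12.72, all lower. Cfi fell by 0.25 (SE 0.08, adjusted p = 0.032), and the difference was -0.19 without replicate 2 (adjusted p = 0.27). It was -0.25 to -0.23 without DE-71 0 mg/kg replicate 1, 2 or 5 (adjusted p from 0.055 to 0.078). C4bpa, the alpha chain of C4b-binding protein, was -0.28 there without a call (adjusted p = 0.078).

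DE-71 50 mg/kg held 8 of the 15 calls, of which 6 were lost without 1 array. Without replicate 2 only Pros1 (0.52, adjusted p = 0.00081) and C1r (0.59, adjusted p = 0.013) remained called, while 2.73% of all genes were called, 1.7% higher and 1.03% lower. None of the 5 falls passed the test there, with differences between -0.38 (Serpind1) and -0.13 (F10) and adjusted p from 0.062 to 0.42. Without DE-71 0 mg/kg replicate 5, 4 members stayed called, and 7.3% of all genes. When only the arrays of this comparison entered the model, no member and 0.83% of all genes were called, and the adjusted p of the 8 members ran from 0.095 to 0.38. The same setting called no member at BDE-47 15 mg/kg (0.675% of all genes) or DE-71 15 mg/kg (0.436%). Without the 4 near-repeat arrays 11 members were called at this dose, 3 higher and 8 lower, against 6.74% and 6.7% of all genes (13.4% in all).

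**Figure D5:**
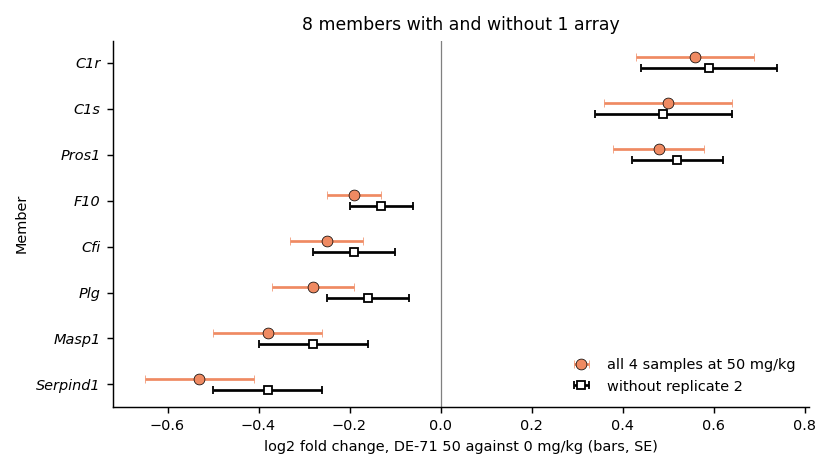
Log2 fold change (bars, SE) at DE-71 50 mg/kg of the 8 members called there, with all 4 samples (filled) and without replicate 2 (open squares). The 3 higher members keep their size, with 0.48 to 0.56 against 0.49 to 0.59, and the 5 lower members move towards 0.

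By class, the differences between coagulation, fibrinolysis and complement were small. At DE-71 50 mg/kg, 12 of 13 coagulation genes and 4 of 4 fibrinolysis genes lay below 0, with medians of -0.158 and -0.178, while complement was split (8 of 15 below 0, median -0.044). Of all genes 49.6% lay below 0, and their median was 0.002. Without replicate 2 the medians were -0.084, -0.088 and 0.032, with 12 of 13, 3 of 4 and 7 of 15 below 0, against -0.011 over all genes. At phenobarbital 45 mg/kg, 11 of 13, 4 of 4 and 9 of 15 lay below 0, against 56.2% of all genes. The class medians were -0.134, -0.164 and -0.101, against -0.022 over all genes. At BDE-47 50 mg/kg the medians were -0.039, -0.122 and 0.03, against -0.016. At PCB126 50 mg/kg, where no member was called, 11 of 13, 3 of 4 and 11 of 15 lay below 0, against 50.9% of all genes. The medians there were -0.024, -0.122 and -0.068, against -0.003. At phenobarbital 5 mg/kg, 10 of 13, 3 of 4 and 9 of 15 lay below 0, against 55.3%. Fewer members lay below 0 at PCB126 10 mg/kg (10 of 32) and DE-71 0.1 mg/kg (11 of 32). These are descriptions of lists, since members of a class are not replicates. Calls per class at DE-71 50 mg/kg were 3 of 13, 1 of 4 and 4 of 15.

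The responses to the mixture and to its congener were compared directly, as DE-71 minus BDE-47 differences at 3 matched doses. No member was called at 0.1 mg/kg (0% of all genes), 15 mg/kg (0.0141%) or 50 mg/kg (0.12%). By limma's unadjusted p below 0.05 there were 0, 2 and 6 members, or 0%, 6.25% and 18.8% against 4.53%, 5.11% and 11.4% of all genes. For C1r, called after DE-71 and not after BDE-47, the difference of responses was 0.49 at 15 mg/kg (95% confidence interval 0.11 to 0.87, adjusted p = 0.97) and 0.53 at 50 mg/kg (0.14 to 0.91, adjusted p = 0.29). For Pros1 it was 0.12 at 15 mg/kg (-0.15 to 0.39) and -0.07 at 50 mg/kg (-0.33 to 0.20). For Serpind1 it was -0.25 at 50 mg/kg (-0.57 to 0.08), and for Masp1 0.07 (-0.26 to 0.40). A difference that missed the threshold does not show that the agents act alike. The Pros1 intervals bound its difference at 0.39 or less in size, and the C1r intervals reach past its DE-71 responses of 0.58 and 0.56.

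Phenobarbital calls depended on how arrays were weighted. With array quality weights, 10 members were called at 45 mg/kg, 1 higher and 9 lower, while 5.88% of all genes were called, 2.72% higher and 3.17% lower. The 9 were C5, Cfi, F10, F12, Masp1, Plg, Proc, Serpind1 and Serpinf2, with differences between -0.48 and -0.18. With only the arrays of that comparison, Pros1, C5, Masp1 and Serpinf2 were called, and 3.08% of all genes.

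Other genes of these cascades were tallied from separate lists. Of 18 measured further coagulation and fibrinolysis genes, 1 fell at BDE-47 50 mg/kg, where 1.68% of all genes were called lower. At DE-71 50 mg/kg 1 rose and 1 fell, where 4.83% of all genes were called higher and 5.35% lower. A2m, the broad protease inhibitor alpha-2-macroglobulin and an acute phase protein in rats, fell by 1.80 (SE 0.34, adjusted p = 0.00019) at BDE-47 50 mg/kg and fell by 2.56 (SE 0.34, adjusted p = 1.2e-07) at DE-71 50 mg/kg. Serpina10, the protein Z-dependent protease inhibitor, rose by 0.44 at DE-71 50 mg/kg (adjusted p = 0.00041).

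Of 16 measured further complement genes, 5 fell at BDE-47 50 mg/kg and none rose, where 2.35% of all genes were called higher and 1.68% lower. Among them were Cfp, the properdin gene (-0.69, adjusted p = 7e-05), the C1q chains C1qc (-0.73, adjusted p = 0.00056) and C1qa (-0.60, adjusted p = 0.0077), and the ficolin gene Fcna (-0.76, adjusted p = 0.0074). C1q is known as a macrophage product in liver. Of 9 measured markers of Kupffer cells and macrophages, 6 fell at that dose. The C1q genes stand on both lists and enter the summed marker signal. Clec4f, which marks Kupffer cells, fell by 0.80 (adjusted p = 0.0098). The summed marker signal lay between 11.25 and 11.79 there, against 11.96 to 12.48 in the controls. The markers and complement genes that fell at that dose were in part the same genes. The part of these cells in the complement differences was not tested. At DE-71 50 mg/kg no marker of this list was called, and the sums lay between 11.86 and 12.24, against 11.54 to 12.11 in the controls. C4bpb, the beta chain of C4b-binding protein, to which protein S binds, fell by 0.48 at phenobarbital 45 mg/kg (adjusted p = 0.014) and by 0.39 at DE-71 50 mg/kg (adjusted p = 0.04). Without replicate 2 the latter was -0.34 and was not called (adjusted p = 0.23).

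Among 14 measured hepatocyte nuclear factors and acute phase regulators, 3 fell at DE-71 50 mg/kg: the interleukin 6 receptor genes Il6r (-0.70, adjusted p = 0.0081) and Il6st (-0.55, adjusted p = 0.0078), and the factor gene Foxa3 (-0.90, adjusted p = 0.012). Cebpb rose at DE-71 15 mg/kg (0.74, adjusted p = 0.014). Without replicate 2 none of these regulators was called at DE-71 50 mg/kg. Beside the list counts at this dose, 4.83% of all genes were called higher and 5.35% lower. Without replicate 2 these shares were 1.7% and 1.03%. Among 26 measured other secreted liver proteins, 2 rose and 9 fell at that dose, and 2 rose and 4 fell without replicate 2. Without it the genes that rose were Apoa2 (2.27, adjusted p = 0.00043) and Crp (1.21, adjusted p = 0.047). Those that fell were Serpina7 (-1.75), Agt (-0.52), Itih3 (-0.24) and Ambp (-0.16). The hepatocyte marker sum lay between 16.4 and 16.6 at that dose, against 16.5 to 16.67 in the controls. Of the 9 hepatocyte markers 2 fell there, Cps1 (-0.47, adjusted p = 0.00012) and Ass1 (-0.79, adjusted p = 0.015), and the list's median was -0.243. Without replicate 2 Cps1 stayed called (-0.30, adjusted p = 0.018) and Ass1 did not (-0.57, adjusted p = 0.22). Of 6 endothelial markers 1 fell, and their sum was 11.09 to 11.73 against 11.65 to 12.0 in the controls. Of 8 stellate cell and fibroblast markers 1 rose and 2 fell (11.19 to 12.23 against 11.61 to 12.41). Of 5 cholangiocyte markers 1 rose, Epcam (1.28, adjusted p = 1.3e-05), and the list's median was 0.211. Their sum, of which Epcam is a part, was 9.03 to 9.65 against 7.79 to 8.4. Epcam also rose at BDE-47 15 and 50, DE-71 15 and phenobarbital 45 mg/kg (0.91, 1.35, 0.99 and 0.74). The list's medians there were 0.01, -0.153, 0.134 and -0.075. Without replicate 2 no endothelial or stellate marker was called at DE-71 50 mg/kg, and Epcam was (1.13). The part of these cells in the member differences was not tested.

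A few members had further probe sets, which did not all move alike. The dimmer Fga probe set (mean 12.03) fell by 0.58 at DE-71 50 mg/kg (adjusted p = 0.0054), against -0.21 for the one used. For Masp2, the dimmest of 3 probe sets (mean 6.59) fell by 1.04 (adjusted p = 0.00069), while the one used gave -0.11 and the other 0.39. The dim Masp1 probe sets gave 0.21 and -0.21 at that dose, and with the mean of all its probe sets Masp1 was -0.13 (adjusted p = 0.25). Falls of Fga, Masp1 and Masp2 at DE-71 50 mg/kg therefore depend on the probe set.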

How the data were processed

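The deposited table holds log2 values of 31099 probe sets on 74 arrays, made by the authors with RMA (no version given), per the submitters' processing notes. The build and software settings are not given in the sources used here. The annotation of 2016 gave 20826 probe sets with 1 gene, 436 with several and 9780 with none, and 57 control probe sets were left out. Each of the 14217 genes was taken from its single-gene probe set of highest mean. Arrays have no counting depth, so their number limits the precision.

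A model of 15 group means was fitted with limma 3.58.1 (R 4.3.3, lmFit and eBayes, 57 residual degrees of freedom), with two-sided p values adjusted by Benjamini and Hochberg within each comparison. It was tested on simulated data of independent samples with the same SD in all groups, so outlying or near-repeat arrays were not covered. Control levels of the members differed between agents, so each dose was set against its own agent's 0 mg/kg group. Alternatives were all 74 arrays, the mean of all probe sets, a second quantile normalization, only the arrays of a comparison, a filter on dim genes, a replicate block, a variance trend, array weights and leaving out each sample, and, added after seeing the data, leaving out the 4 near-repeat arrays and testing each probe set. The members and lists were chosen with earlier results of these data known. Named are all called members, Fgb, F2, Plg, Serpinc1, C3 and C9 whether called or not, other members by range, and up to 4 called genes per other list. Fga, Fgg, F5, F12, Klkb1, Proc, Mbl2, C4bpa, Serpinf2, C6 and C8b are named beyond that rule, after their values were seen. Promoters are RefSeq's (GRCr8).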

Additional observations from a re-analysis of the deposited data

Results flagged for a closer look

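A sample was set apart when it lay far from the rest of its group by Dixon's criterion at 95%. This held for 39 of 480 member and group combinations, where chance gives about 5%.

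PCB126 50 mg/kg replicate 5 accounts for 7 of them, all low: Fga 13.32, Fgb 13.35, Serpinc1 13.21, Plg 12.74, Vtn 12.79, C3 13.59 and C8a 11.34, each below all others of its group. No member was called at that dose with or without it. C8b stood low in phenobarbital 5 mg/kg replicate 3 (10.35), PCB126 50 mg/kg replicate 4 (10.28) and PCB126 250 mg/kg replicate 1 (10.20).

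Low values in controls were F5 (10.04) and Serpinf2 (11.46) in BDE-47 0 mg/kg replicate 5, Fgb in BDE-47 0 mg/kg replicate 1 (13.53), Fgb (13.54) and Fgg (13.86) in DE-71 0 mg/kg replicate 3, and Fga (13.83) and Fgb (13.72) in PCB126 0 mg/kg replicate 1 with F10 (11.64) in replicate 3. High values in controls were F12 (12.66) in phenobarbital 0 mg/kg replicate 1 and Masp1 (9.94) in replicate 4.

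Among BDE-47 samples, C4bpa was low in 0.1 mg/kg replicate 3 (12.01) and F9 (12.32) and F10 (11.51) in 15 mg/kg replicate 3. F10 was also low in 50 mg/kg replicate 3 (11.50), the near repeat of that array, and Plg in 50 mg/kg replicate 1 (12.97). Masp2 was high in 15 mg/kg replicate 4 (10.83) and 50 mg/kg replicate 2 (10.70).

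Among DE-71 samples, F5 (9.31) and C1s (11.13) were low in 0.1 mg/kg replicate 4 and C1r (10.70) in 15 mg/kg replicate 3, while Mbl2 (12.70) was high in 0.1 mg/kg replicate 2 and Klkb1 (11.87) in 15 mg/kg replicate 4.

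Among treated phenobarbital samples, Fgb (13.80), Klkb1 (11.62) and C3 (13.97) were low in 45 mg/kg replicates 2, 4 and 5, while C8g (12.33) was high in replicate 3 and Masp2 (10.93) in 5 mg/kg replicate 4. In PCB126, Cpb2 was low in 10 mg/kg replicate 3 (11.91) and Serpinc1 high in 250 mg/kg replicate 2 (13.53).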

How the results depend on the processing

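No called value changed direction. Small differences that were not called did so in places, among them Fgb at phenobarbital 45 mg/kg (-0.13, and 0.05 with the mean of all probe sets) and C3 at DE-71 50 mg/kg (-0.04, and 0.03 without replicate 2). That mean for Fgb takes in dim probe sets (mean signals 4.02 and 2.96, against 13.79 for the one used). The dim ones gave 0.28 and 0 at phenobarbital 45 mg/kg. The 15 calls had 287 alternative values, of which 241 were still called. With only the arrays of the comparison 0 members were called at BDE-47 15, DE-71 15 and DE-71 50 mg/kg, and 4 at phenobarbital 45 mg/kg. With array quality weights 4 were called at DE-71 50 mg/kg and 10 at phenobarbital 45 mg/kg. Leaving out 1 sample gave 0 to 1 at BDE-47 15 mg/kg (0 without BDE-47 0 mg/kg replicate 1 or 3 and 4, or BDE-47 15 mg/kg replicate 4, with Pros1 at 0.36 to 0.37), 1 to 2 at BDE-47 50 mg/kg (Masp1 lost without BDE-47 0 mg/kg replicate 2 or 3 and 4, or BDE-47 50 mg/kg replicate 1), 1 to 2 at DE-71 15 mg/kg (C1r lost without DE-71 0 mg/kg replicate 3), 2 to 12 at DE-71 50 mg/kg and 1 to 2 at phenobarbital 45 mg/kg. A second quantile normalization called F2 (-0.23), Fga (-0.25), Fgb (-0.20) and Fgg (-0.15) at DE-71 50 mg/kg, 12 members in all, and Plg at phenobarbital 45 mg/kg (-0.34). The mean of all probe sets lost Masp1 at DE-71 50 mg/kg. Of the 46 lost values, those of F10, Plg, Masp1 and Cfi at DE-71 50 mg/kg also include single control arrays and array weights, and those of C5 at phenobarbital 45 mg/kg 6 of its 10 samples. Among 65 differences of named genes that were not called, 4 of 1271 alternative values were called. The cause of these changes was not tested. The counts of 0 at 0.1 mg/kg, phenobarbital 5 mg/kg and all PCB126 doses stayed at 0 in these alternatives.

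No label says that replicate numbers pair the samples, and this was not settled here. After group means were taken off, same-numbered arrays correlated above 0.1 in 7 of 30 BDE-47 pairs and 9 of 27 for DE-71. The counts were 3 of 15 for phenobarbital and 14 of 30 for PCB126. Median correlations of same-numbered arrays were 0.071 for PCB126 and 0.053 for DE-71, against -0.001 and -0.011 for other numbers. They were -0.012 for BDE-47 and 0.001 for phenobarbital, against -0.008 and 0.001. A replicate block, fitted with all 74 arrays, gave 3 called members in place of 2 at BDE-47 50 mg/kg (C5 was also called with all 74 arrays and no block) and the main counts elsewhere (1 at BDE-47 15, 2 at DE-71 15, 8 at DE-71 50 and 2 at phenobarbital 45 mg/kg, and 0 in the other comparisons).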
